A study of Rattus norvegicus with 4 samples.

Results

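The 8 genes described here encode neurotrophins, the related ligand GDNF and the receptors that bind them in the neonatal rat hippocampus. They were chosen by matching the gene symbol in the deposited expression tables, and all 8 of Bdnf, Ntf3, Ntrk2, Ntrk3, Ngfr, Sort1, Gdnf and Gfra1 were found among 17445 rows. Hippocampi came from male and female Wistar rat pups on postnatal day 1. Their mothers, 10 weeks old by the series record, had received either bisphenol A (BPA, an estrogenic chemical used in plastics) at 5000 µg/kg body weight each day, or vehicle, from gestation day 1 until birth. Total RNA was sequenced as 1 library for each of 4 groups, which are male vehicle, male BPA, female vehicle and female BPA. The series record describes the RNA of each treatment as pooled from 3 hippocampi, without saying whether that number holds for each library, and does not name litters. The paper lists 3 male and 3 female pups in each treatment for this sequencing, and states that replicates came from independent litters.

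Neurotrophins are made as larger precursors and cut to mature proteins. Mature BDNF acts through the receptor tyrosine kinase TrkB and mature NT-3 through TrkC, and both kinases drive survival, neurite growth and synapse formation. The precursors bind the p75 receptor together with sortilin, a pairing known for triggering cell death. GDNF belongs to another ligand family and binds GFRα1, which signals with the RET kinase or with the adhesion molecule NCAM. In the developing hippocampus, NT-3 is known as the early neurotrophin of the dentate gyrus and BDNF as the one that rises with activity as the tissue matures.

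The tables give 1 value for each gene, in FPKM (fragments scaled to the length of the gene model and to the size of the library), so that transcripts from different start sites are pooled. Bdnf has several alternative first exons, and RefSeq promoter windows of the GRCr8 build, from 250 bases before to 50 bases after a start, gave 6 windows for Bdnf, 3 for Ntf3, and 1 each for Sort1, Gdnf and Gfra1. Ntrk2, Ntrk3 and Ngfr had no matching window. The letters CGTCA, the core of the site bound by the activity-regulated factor CREB, were searched on both strands and were found in 1 of the 6 Bdnf windows and in the Gdnf window, against 21.2% of all 33469 windows. In both, the match lies inside the longer string CACGTCA, which 1.81% of all windows hold. None of the 12 windows of the 8 genes held the palindromic estrogen response element (AGGTCA and TGACCT with 3 bases between them) or the full CRE TGACGTCA, against 0.00896% and 1.83% of all windows. These matches describe letters, not bound sites. The windows with a match are shown with one Ntf3 window, since these 3 ligands were the least expressed or the most variable genes described below. Capitals mark CGTCA or its reverse complement, and all windows read 5′ to 3′ along the gene.
Bdnf, GRCr8 chr3:116637608-116637907, plus strand: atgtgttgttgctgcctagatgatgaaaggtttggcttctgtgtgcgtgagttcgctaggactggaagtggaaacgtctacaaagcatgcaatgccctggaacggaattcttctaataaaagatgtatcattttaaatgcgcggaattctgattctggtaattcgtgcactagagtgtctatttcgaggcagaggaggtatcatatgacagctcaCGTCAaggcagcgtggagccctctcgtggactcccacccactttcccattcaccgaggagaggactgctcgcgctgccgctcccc
Gdnf, GRCr8 chr2:58621077-58621376, plus strand: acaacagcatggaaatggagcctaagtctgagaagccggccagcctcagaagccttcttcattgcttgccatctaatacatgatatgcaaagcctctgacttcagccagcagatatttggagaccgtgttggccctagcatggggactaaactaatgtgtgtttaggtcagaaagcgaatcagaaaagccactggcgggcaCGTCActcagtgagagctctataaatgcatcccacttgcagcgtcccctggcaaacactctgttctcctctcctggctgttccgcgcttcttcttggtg
Ntf3, GRCr8 chr4:160670574-160670873, minus strand: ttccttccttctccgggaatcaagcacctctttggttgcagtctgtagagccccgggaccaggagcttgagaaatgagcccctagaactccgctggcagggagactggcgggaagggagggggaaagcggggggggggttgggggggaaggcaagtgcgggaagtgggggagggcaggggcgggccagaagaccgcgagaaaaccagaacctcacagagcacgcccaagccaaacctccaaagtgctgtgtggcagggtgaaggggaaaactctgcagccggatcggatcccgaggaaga

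Each library was estimated to rest on between 8660000 and 8940000 fragments, from the steps between low FPKM values. All intervals below come from these estimated fragments and cover counting error only, not differences between animals. Markers of hippocampal neurons were present in all 4 libraries, with Neurod6 between 135.01 and 161.31 FPKM, while the summed level of thalamus and hypothalamus markers was between 7.11 and 9.33 FPKM. The female vehicle library stood apart in 10 of 10 meninges markers, which were highest there: their summed level was 380.9 FPKM, against 84.94 to 104.9 FPKM in the other 3 libraries. Choroid plexus markers, led by Ttr, summed to 268.3 and 712.0 FPKM in the male vehicle and BPA libraries and to 10.29 and 46.8 FPKM in the female ones. Since these are bulk samples, fewer cells of a type and less RNA per cell cannot be told apart.

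The 8 genes spanned a wide range of expression, from Ntrk2 and Sort1 at the top to the ligand genes Bdnf and Gdnf at the bottom. Mean levels over the 4 libraries, in FPKM, which is already per length, were 56.62 ± 2.75 for Ntrk2, 34.29 ± 1.95 for Sort1, 20.73 ± 2.01 for Ntrk3, 8.91 ± 1.16 for Gfra1, 4.795 ± 1.91 for Ntf3, 2.385 ± 0.295 for Ngfr and 1.875 ± 0.129 for Bdnf (SD, n = 4). Ntrk2, the gene for TrkB, lay above 89.7% of all genes with a gene ID, and Bdnf above 23.1% of them. The level of Ntrk2 was 1.65 times that of Sort1 and Sort1 was 1.65 times Ntrk3, with no overlap between the ranges of the libraries at either step. Among neighbours in this order, the ranges of Ngfr and Bdnf alone overlapped: the lowest Ngfr library was at 1.99 FPKM and the highest Bdnf library at 2.05 FPKM. Gfra1 and Ntf3 were close without overlapping, at 7.92 FPKM in the lowest Gfra1 library and 7.53 FPKM in the highest Ntf3 library.

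**Figure D1:**
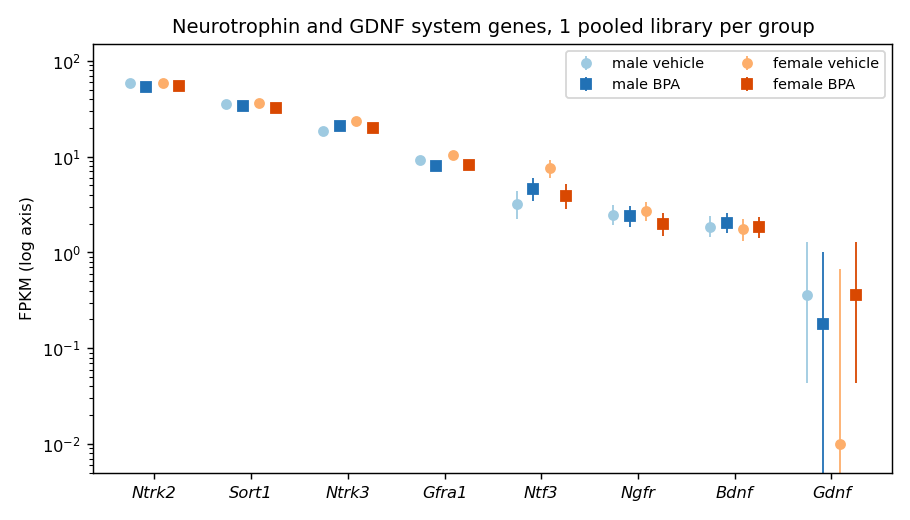
FPKM (log axis) of the 8 genes in each of the 4 pooled libraries, ordered by mean level; points are the deposited values and vertical lines 95% exact Poisson intervals of the estimated fragments, which cover counting error only. Ntrk2 lies highest at 53.96 to 59.18 FPKM, Ntf3 shows the widest spread among the genes above 1 FPKM, and Gdnf lies at the counting limit in all 4 libraries.

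Bdnf, the neurotrophin that binds TrkB, was expressed at nearly the same low level in all groups. Its levels were 1.86 FPKM in male vehicle, 2.05 in male BPA, 1.74 in female vehicle and 1.85 in female BPA, from 59 to 72 fragments. The BPA library was slightly the higher in each sex, and the ranges of the vehicle and BPA libraries overlapped. The BPA minus vehicle difference on the log2(FPKM + 1) scale was 0.09 in males and 0.06 in females. The counting interval of the log2 ratio of FPKM ran from -0.36 to 0.65 in males and from -0.44 to 0.63 in females, so that differences of this size were not detectable at this depth. The limma log2 change over both sexes was 0.07 (SE 0.218, adjusted p = 0.988), and it was 0.03 without the male BPA library, 0.04 without the female vehicle library, 0.12 without the female BPA library and 0.15 after quantile normalization.

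Ntf3, the gene for NT-3, varied most among the 7 genes with a mean of at least 1 FPKM, and its BPA minus vehicle difference had opposite signs in the 2 sexes. Its levels were 3.19 FPKM in male vehicle, 4.57 in male BPA, 7.53 in female vehicle and 3.89 in female BPA, which rest on 36, 52, 84 and 44 fragments. The female vehicle library was the highest, at 2.36 times the lowest, and the other 3 did not exceed 4.57 FPKM. On the log2(FPKM + 1) scale the difference was 0.41 in males and -0.80 in females, and the log2 ratio of FPKM was 0.52 in males (95% counting interval -0.11 to 1.19) and -0.95 in females (-1.51 to -0.41).
Between the vehicle libraries, the log2 ratio of male to female Ntf3 was -1.24 (-1.85 to -0.67), whereas between the BPA libraries it was 0.23 (-0.37 to 0.85). The female contrast thus rests on the same vehicle library that holds the high meninges markers. Ptgds, the highest of these markers, was at 209.3 FPKM in that library and at 18.1 to 40.22 FPKM in the other 3. Of the 10 endothelium or pericyte markers, 8 were also highest in female vehicle. The same held for 4 of 11 radial glia or astrocyte markers and 2 of 10 hippocampal neuron markers. Prox1, a hippocampal neuron marker, was at 12.38 FPKM in male vehicle, 10.24 in male BPA, 12.81 in female vehicle and 7.61 in female BPA. The part of meningeal tissue, or of any of these cell types, in the Ntf3 values was not tested. When the 2 BPA libraries were set against the 2 vehicle libraries, limma gave a log2 change of -0.20 (SE 0.327, adjusted p = 0.987), and without the female vehicle library it became 0.32 (adjusted p = 0.978).

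Gdnf, the ligand of GFRα1, was barely detected. It was listed at 0.36 FPKM in male vehicle, 0.18 in male BPA, 0.01 in female vehicle and 0.36 in female BPA, which correspond to 2, 1, 0 and 2 fragments. The value 0.01 is the lowest that the tables list, and a count of 0 has an exact 95% upper bound of 0.666 FPKM in that library. All 4 libraries lay under the limit set by 3 fragments, which was 0.536 to 0.541 FPKM. No fold change is therefore given, and no group was distinguishable at this depth.

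Other ligands of the family were also scarce. Ntf4, which shares TrkB with BDNF, was at most 0.09 FPKM, and Nrtn, the ligand of GFRα2, was between 0.19 and 0.94 FPKM. Of the 7 family ligands in all 4 tables, only Ntf3 and Bdnf reached a mean of 1 FPKM.

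**Figure D2:**
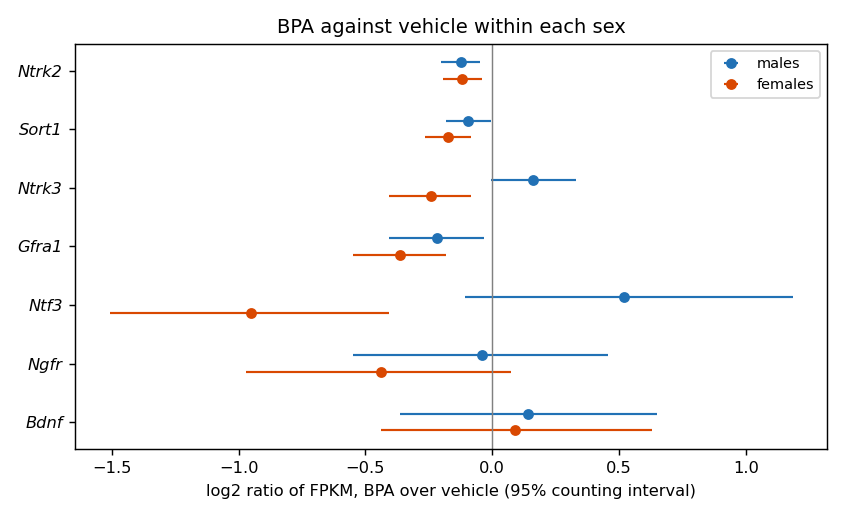
Log2 ratio of FPKM, BPA over vehicle, within males and within females for the 7 genes with a mean of at least 1 FPKM; points compare 1 library with 1, and horizontal lines are 95% counting intervals, which do not include differences between animals. Ntrk2, Sort1 and Gfra1 lie left of 0 in both sexes, and Ntf3 and Ntrk3 lie on opposite sides of 0 in males and females.

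Ntrk2, which encodes the BDNF receptor TrkB, was the most abundant of these genes and was slightly lower in both BPA libraries. Its levels were 58.8 FPKM in male vehicle, 53.96 in male BPA, 59.18 in female vehicle and 54.54 in female BPA, from 2715 to 2948 fragments. Both BPA libraries lay below both vehicle libraries, and the male and female libraries of each treatment were almost equal. The difference was -8.23% in males and -7.84% in females, with counting intervals of the log2 ratio from -0.20 to -0.049 and from -0.19 to -0.042. The vehicle mean was 58.99 ± 0.269 FPKM and the BPA mean 54.25 ± 0.41 FPKM (SD, n = 2 each), and the limma estimate was a log2 change of -0.12 (SE 0.0942, adjusted p = 0.973).

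Ntrk3, the gene for the NT-3 receptor TrkC, moved in opposite directions in the 2 sexes, as Ntf3 did, but by less. Its levels were 18.75 FPKM in male vehicle, 20.98 in male BPA, 23.41 in female vehicle and 19.78 in female BPA. The male vehicle library was the lowest, the female vehicle library the highest, and both BPA libraries lay between them. The difference was 0.15 in males and -0.23 in females on the log2(FPKM + 1) scale, and the counting interval of the log2 ratio ran from -0.0041 to 0.33 and from -0.41 to -0.082. Within the vehicle groups the log2 ratio of male to female was -0.32 (-0.49 to -0.16), and within the BPA groups it was 0.085 (-0.080 to 0.25). The limma change over both sexes was -0.04 (SE 0.138, adjusted p = 0.988). It was -0.19 without the male vehicle library and -0.08 without the male BPA library. The sign turned without the female vehicle library (0.11) and without the female BPA library (0.0015).

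Ngfr, the gene for the p75 receptor, was expressed near the level of Bdnf. It was at 2.46 FPKM in male vehicle, 2.39 in male BPA, 2.70 in female vehicle and 1.99 in female BPA. Both BPA libraries lay below both vehicle libraries, by a narrow margin in males, where 70 fragments stood against 68. The counting interval of the log2 ratio included 0 in males (-0.55 to 0.46) and in females (-0.97 to 0.075). Over both sexes limma gave a log2 change of -0.17 (SE 0.207, adjusted p = 0.974). This estimate was -0.08 without the female BPA library, -0.26 without the male BPA library and -0.08 after quantile normalization.

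Sort1, the gene for sortilin, the partner of p75 for proneurotrophins, was at 35.7 FPKM in male vehicle, 33.44 in male BPA, 36.06 in female vehicle and 31.94 in female BPA. The vehicle libraries were almost equal and both BPA libraries lay below them. The log2 ratio was -0.094 in males (-0.18 to -0.0055) and -0.17 in females (-0.27 to -0.084), and the limma change was -0.13 (SE 0.101, adjusted p = 0.973).

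Gfra1, the gene for the GDNF co-receptor, had the largest limma estimate of the 7 genes. It was at 9.21 FPKM in male vehicle, 7.92 in male BPA, 10.42 in female vehicle and 8.09 in female BPA. Both BPA libraries lay below both vehicle libraries and close to each other. The difference was -14.0% in males and -22.4% in females, and the log2 ratio was -0.22 (-0.41 to -0.032) and -0.37 (-0.55 to -0.18). The vehicle mean was 9.815 ± 0.856 FPKM and the BPA mean 8.005 ± 0.12 FPKM (SD, n = 2 each). The limma log2 change was -0.26 (SE 0.137), with an unadjusted p of 0.099 and an adjusted p of 0.973.
The tables also hold 2 new gene models that match the GFRα1 protein. One was listed at 1.10, 0.75, 2.2 and 0.01 FPKM in male vehicle, male BPA, female vehicle and female BPA, and the other at 0.77, 0.01, 0.38 and 1.13 FPKM, from at most 15 fragments each. The first model, with a mean of 1.015 FPKM, was among the rows tested. Its difference on the log2(FPKM + 1) scale was -0.26 in males and -1.66 in females, where the BPA value is the lowest listed. Limma gave it a log2 change of -0.96 (unadjusted p = 0.042, adjusted p = 0.973). The second model was not tested, and its difference was -0.81 in males and 0.63 in females. Summed with the 2 models, Gfra1 was at 11.08, 8.68, 13 and 9.23 FPKM in the same order, and both BPA libraries again lay below both vehicle libraries.

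**Figure D3:**
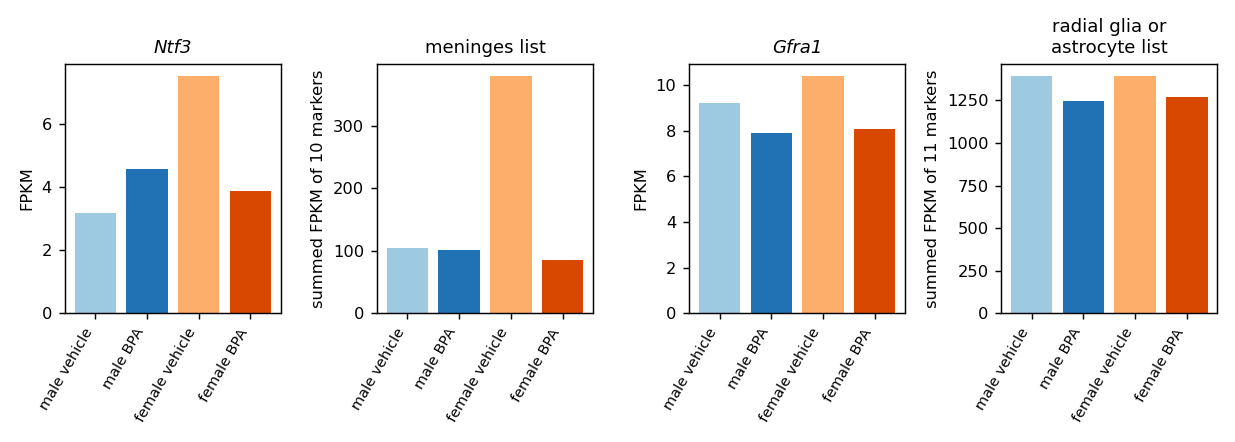
Bars show, in each of the 4 libraries, the FPKM of Ntf3, the summed FPKM of 10 meninges markers, the FPKM of Gfra1 and the summed FPKM of 11 radial glia or astrocyte markers, with all axes from 0 and 1 library per bar. Ntf3 (7.53 FPKM) and the meninges list (380.9 FPKM) were both highest in female vehicle, and Gfra1 and the glial list were both lower in the 2 BPA libraries.

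Over both sexes, limma with Benjamini-Hochberg adjustment called 0 of the 7 genes at an adjusted p of 0.05 and 0 at an unadjusted p of 0.05. The same fit called 0 of 13542 rows tested after adjustment (0%) and 637 before it (4.7%). Between the sexes 0 of the 7 genes were called by either rule, against 1 row after adjustment (0.00738%) and 1442 before it (10.6%). With 2 libraries against 2, an exact permutation test of a single gene cannot give a two-sided p below 0.333, and within a sex no test was possible with 1 library per group. A log2 difference of at least 1 was reached by 0 of the 7 genes in either sex, against 1.7% of rows in males and 2.17% in females. The tested GFRα1 gene model reached it in females (-1.66). A difference of at least 0.5 was reached by 0 of the 7 genes in males, where 7.2% of rows reached it, and by Ntf3 alone in females, where 9.96% did.

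In direction, 4 of the 7 genes (Ntrk2, Sort1, Gfra1 and Ngfr) were lower with BPA in both sexes, against 31.6% of all rows tested. Bdnf alone was higher in both, against 24.4% of rows, and Ntf3 and Ntrk3 differed between the sexes, against 43.2%. For the same 4 receptor genes both BPA libraries lay below both vehicle libraries, which was true of 19.9% of rows, and for 0 of the 7 did both lie above, against 13.8%. The median difference of the 7 genes was -0.029 in males and -0.232 in females, beside -0.002 and -0.038 over all rows. Without the female vehicle library, the limma log2 changes of Ntrk2, Sort1, Gfra1 and Ngfr were -0.11, -0.12, -0.18 and -0.12, and none of the 4 changed sign.

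Markers of radial glia and astrocytes, which also express TrkB, were lower with BPA as well. Of 11 such markers, 9 were lower in male BPA and 10 in female BPA, with summed levels of 1395 and 1390 FPKM in the male and female vehicle libraries and 1246 and 1270 FPKM in the BPA ones. Markers of the oligodendrocyte lineage summed to 145.4 and 120.4 FPKM in male and female vehicle and to 113 and 102.9 FPKM in the BPA libraries, with 7 and 6 of 9 lower. Olig1, the highest of them, was at 76.91 and 52.49 FPKM in male and female vehicle and at 50.79 and 39.83 FPKM in BPA. For comparison, 6820 of all 13542 rows tested were lower in male BPA and 7658 in female BPA. Interneuron markers summed to 294.7 and 249.9 FPKM in vehicle and to 288.8 and 228.4 FPKM in BPA, with 7 and 8 of 10 lower. Endothelium and pericyte markers summed to 135.5 and 154.1 FPKM in male and female vehicle and to 126.5 and 125.2 FPKM in the BPA libraries. Hippocampal neuron markers did not move the same way, with 573.8 and 521.4 FPKM in vehicle and 587.4 and 583.8 FPKM in BPA. The part of these markers in the receptor values was not tested.

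The rest of the pathway was described from 6 lists with 88 genes in all, of which 69 were in all 4 tables with a mean of at least 1 FPKM. Of these 69, which include the 7 genes above, limma called 0 for BPA with adjustment and 0 without it. Among them, 30 were lower with BPA in both sexes and 14 higher in both, beside 31.6% and 24.4% of all rows tested. The median difference of the 69 was -0.023 in males and -0.06 in females. Ntf3 was the only one to reach a log2 difference of 0.5 in either sex.

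Among the 13 receptors and co-receptors tested, 9 were lower with BPA in both sexes and 1 was higher, with medians of -0.031 in males and -0.232 in females. Both BPA libraries lay below both vehicle libraries for 8 of the 13, which were Ntrk2, Ngfr, Sort1, Gfra1, Ret, Gfra2, Gfra4 and Sorcs1, beside 19.9% of all rows. Ret, the signalling kinase of the GDNF receptor, was at 3.48 FPKM in male vehicle, 2.89 in male BPA, 3.67 in female vehicle and 2.66 in female BPA. Gfra2, the neurturin co-receptor, was at 7.03, 5.67, 6.48 and 5.35 FPKM in the same order. These receptors thus lay lower in both BPA libraries along with Gfra1, although limma called none of them (adjusted p of 0.973 for Ret and for Gfra2).
Ncam1, the other signalling partner of GFRα1, went the opposite way, at 242.73 FPKM in male vehicle, 254.23 in male BPA, 231.75 in female vehicle and 251.24 in female BPA, with an adjusted p of 0.973 by limma. It was the 1 receptor of the list with both BPA libraries above both vehicle libraries. Sorcs2, a relative of sortilin, was at 17.33, 17.15, 15.32 and 13.8 FPKM, where the male and female libraries lay further apart than the treatments.

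Genes that sort and cut proneurotrophins were also mostly lower with BPA. Of 8 tested, 7 were lower in both sexes and 0 were higher in both, with medians of -0.136 in males and -0.106 in females, and for 5 of the 8 both BPA libraries lay below both vehicle libraries, beside 19.9% of all rows. Cpe, a sorting receptor for proBDNF, was at 591.64 FPKM in male vehicle, 550.95 in male BPA, 565.79 in female vehicle and 542.57 in female BPA. Plat, which encodes tissue plasminogen activator, was at 20.61, 16.64, 21.67 and 19.46 FPKM in the same order. Furin, which cuts the precursors inside the cell, was at 21.51, 20.41, 17.13 and 16.87 FPKM and differed more between the sexes than between the treatments. After quantile normalization, 5 of the 8 were lower in both sexes, as were 10 of the 13 receptors and 27.8% of all rows.

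Downstream genes showed no shared direction. Of 26 intracellular signalling genes, 9 were lower and 6 higher with BPA in both sexes, with medians of 0.007 in males and -0.014 in females. Over all rows tested, 31.6% were lower and 24.4% higher in both. With quantile-normalized values the balance turned, as 6 of the 26 were lower and 10 higher in both sexes. The medians were then 0.029 for males and 0.005 for females. All rows tested turned likewise, from 4284 lower and 3305 higher to 3771 lower and 3944 higher. Akt1, a survival kinase, was at 145.43 FPKM in male vehicle, 148.27 in male BPA, 131.40 in female vehicle and 135.93 in female BPA. The adaptor Grb2 was between 90.05 and 99.84 FPKM, and Kidins220, a scaffold of Trk receptors, between 116.04 and 127.97 FPKM.
Of 9 p75 partners, 1 was lower and 1 higher in both sexes, and Maged1, which binds the p75 intracellular domain, was between 267.81 and 306.79 FPKM. The p75 partner Bex3 was between 174.39 and 193.87 FPKM, and Arhgdia between 176.72 and 221.61 FPKM. Of 11 genes that respond to Trk or ERK signalling, 4 were lower and 5 higher in both sexes. Dusp4, an ERK pathway phosphatase, was at 79.80 FPKM in male vehicle, 86.53 in male BPA, 54.85 in female vehicle and 68.01 in female BPA. The feedback inhibitors Spry2 and Spred2 were between 17.62 and 19.23 FPKM and between 23.91 and 28.17 FPKM.

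**Figure D4:**
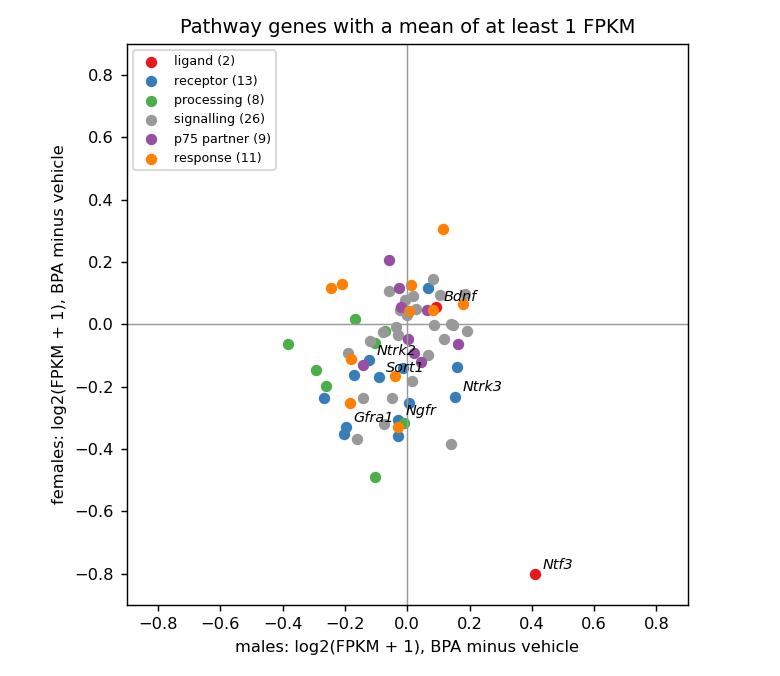
Each point is 1 of the 69 pathway genes with a mean of at least 1 FPKM, placed by its BPA minus vehicle difference of log2(FPKM + 1) in males (horizontal) and in females (vertical) and coloured by its list. Most receptors lie below 0 in females, and Ntf3 stands alone at 0.41 and -0.80.

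The genes whose pattern over the 4 libraries was closest to that of Ntf3 were found among 10856 rows with a gene ID, by the largest gap between log2(FPKM + 1) values centred on each gene's mean. They were Spp1, which encodes osteopontin, with a largest gap of 0.0648, Lyve1, a marker of lymphatic vessels and border macrophages, with 0.0934, and the DNA polymerase gene Poli with 0.11. Lyve1 was at 2.09 FPKM in male vehicle, 2.61 in male BPA, 5.12 in female vehicle and 2.26 in female BPA. All 3 were highest in female vehicle, which follows from their selection by likeness to Ntf3, and 63 rows lay within 0.25 of the Ntf3 pattern.
For Gfra1, the closest were Sdccag8 (0.016), Glul (0.0179), which encodes the astrocyte enzyme glutamine synthetase, and Spg11 (0.0201). Glul was at 128.46 FPKM in male vehicle, 109.97 in male BPA, 141.52 in female vehicle and 112.58 in female BPA. The pattern of Gfra1 spans only 0.36 on this scale, and 5109 of the 10856 rows lay within 0.25 of it, so that likeness to Gfra1 sets few genes apart.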

How the data were processed

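The data are 1 RNA sequencing library for each of 4 groups. Per the labels, the authors used HISAT 0.1.6, Bowtie2 2.2.5 and RSEM with the rat build rn6. The deposited values were taken as FPKM, since value times length in kilobases sums to 1023371 to 1035551 in each library. Their annotation release is not given in the sources used here. Rows missing from the tables of 1 sex were left out, and 13542 rows with a mean of at least 1 FPKM were tested.

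Values were compared as log2(FPKM + 1), which understates changes of low genes. BPA and vehicle were compared over both sexes, and males and females over both treatments, with limma 3.58.1 in R 4.3.3 (lmFit, eBayes with trend) and Benjamini-Hochberg adjustment over all rows. Within a sex, differences have no test. Fragments were estimated from the steps of low values (95.1% to 98.8% of low values within 0.15 of a whole fragment), with exact 95% intervals in scipy 1.17.1. RSEM estimates need not be whole, so no count test was run. Scripts were tested on simulated data.

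The genes and lists were chosen with earlier results of these data known. Named besides the 8 genes were the 3 highest genes of each list, any pathway gene reaching a log2 difference of 0.5, and the 3 closest patterns to Ntf3 and Gfra1. Ret, Gfra4, Sorcs1, Ntf4 and Nrtn were named after their values were seen.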

Additional observations from a re-analysis of the deposited data

Results flagged for a closer look

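For 2 of the 8 genes the BPA libraries lay on opposite sides of vehicle in males and females. For Ntf3, the change of log2(FPKM + 1) in males exceeded that in females by 1.21, with 0.41 in males and -0.80 in females. For Ntrk3, the gap was 0.39, with 0.15 in males and -0.23 in females. These differences between the sexes were not tested, because 1 library per group leaves no residual spread. In both genes the female vehicle library was the highest of the 4, and opposite directions were found in 43.2% of all rows tested.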

How the results depend on the processing

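The labels give no replicate numbers by which to pair libraries. The fit with sex as a covariate, which pairs them by sex, left the log2 changes as they were and called 0 of the 7 genes (smallest adjusted p 0.605 by limma, for Gfra1). Over 57 alternatives for the both-sex log2 changes of the 7 genes, 0 gave an adjusted p under 0.05 by limma and 3 changed sign, all on leaving out 1 library, where limma assumes that the lone library of an arm varies like the others. Ntf3 ranged from -0.71 to 0.32 over the omissions, with 0.32 without female vehicle, and Ntrk3 from -0.19 to 0.11, with 0.11 without female vehicle and 0.0015 without female BPA. Over 30 alternatives within a sex, 0 differences moved out of their counting interval.

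The count of rows called for BPA in both sexes was 0, and became 1 with models of one protein summed, 2 with sex as a covariate, 0 to 3 with 1 library left out (1 without male BPA, 3 without female vehicle) and 637 at an unadjusted p. The count between the sexes was 1, and became 21 at a mean of at least 5 FPKM, 34 with gene IDs only, 20 with models summed, 55 with treatment as a covariate, 1 to 2 with 1 library left out (2 without female vehicle) and 1442 at an unadjusted p. The count of rows past a log2 difference of 1 was 230 in males and 294 in females, and became 492 and 580 with a pseudocount of 0.1, 28 and 60 at a mean of at least 5 FPKM, 29 and 70 with gene IDs only, and 78 and 121 with models summed. The causes of these shifts were not tested. Ntf3, Ngfr, Bdnf and Gdnf rest on under 100 fragments per library, so that only large changes in them could be seen.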
